A study of Mus musculus with 2 samples.

Results

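The miRNAs described here are miR-193a, miR-193b and miR-365 of the mouse. They were chosen by name: every mature miRNA in either count table whose name starts with miR-193a-, miR-193b- or miR-365-, both arms included. This gave 6 of the 1477 miRNA names found in the series. They were mmu-miR-193a-3p, mmu-miR-193a-5p, mmu-miR-193b-3p, mmu-miR-365-3p, mmu-miR-365-1-5p and mmu-miR-365-2-5p, written below without the species prefix. The series comprised 2 libraries of 1 group, labelled replicates 1 and 2, from cultured keratinocytes of mouse skin grown in a low-calcium medium. Both replicates carried exogenous Dsp-BirA, a fusion of desmoplakin with a biotin ligase, and both were given biotin. Biotin-labelled proteins and their RNA were captured on streptavidin after DNase and RNase treatment, and RNA ends were ligated as in CLEAR-CLIP, a method that joins a miRNA to the RNA it pairs with. The fusion was expressed exogenously, from a promoter and at a level that the labels do not give, the labels name the cells as keratinocytes of skin without a line name, and no library of cells without the fusion, without biotin or before capture was analysed here.

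A miRNA hairpin is cut by Drosha and then Dicer into a short duplex, and an Argonaute protein keeps one strand, the guide, while the other strand is usually lost. The guide finds its targets mainly through its seed, bases 2 to 8 from the 5′ end. miR-193 and miR-365 genes lie side by side at a pair of places in the genome, so that each miR-193 gene has a miR-365 neighbour. miR-193a has been linked to p63, the transcription factor that maintains the basal layer of the epidermis, and to its relative p73. The cluster of miR-193b and miR-365 has been linked to brown fat cells, though whether they need it is not settled. miR-193b has also been described as a brake on growth in several tumours.

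The sequences of the 3p arms, which carried nearly all counts, are given first, with the seed in capitals, because the seed shows which of the names can share targets. All sequences are RefSeq entries on GRCm38.p6, and all 6 names had one.
miR-193a-3p: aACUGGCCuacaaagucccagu
miR-193b-3p: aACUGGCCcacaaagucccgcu
miR-365-3p: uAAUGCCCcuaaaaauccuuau
miR-193a-3p and miR-193b-3p have the same seed and 19 of 22 bases in common. Counted from the 5′ end, with the base of miR-193a-3p first, they differ by U9C, A20G and G21C. No other name of the RefSeq table has this seed, and no other comes within 5 mismatches of either sequence over 18 or more aligned bases. miR-365-3p has a seed that no other name of the table has. How the deposited counts treated reads that fit more than 1 name is not stated, so the exchange of reads between miR-193a-3p and miR-193b-3p, whose first 8 bases are identical, was not tested.

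The 5p arms are shown with the same marking, because they are the only mature sequences that could tell the miR-365 genes apart.
miR-193a-5p: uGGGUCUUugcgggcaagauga
miR-193b-5p: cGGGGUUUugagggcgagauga
miR-365-1-5p: aGGGACUUuugggggcagaugug
miR-365-2-5p: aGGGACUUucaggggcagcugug
miR-193a-5p and miR-193b-5p differ at 5 of 22 bases, with changes inside the seed (U5G and C6U), so their seeds are not the same. The 5p arms of the miR-365 genes share a seed and differ by U10C, G11A and A19C, with the base of miR-365-1-5p first. miR-193b-5p has a RefSeq entry and was listed in neither count table, so it is not among the 6 names.

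The hairpins show where both arms lie. The arms are in capitals, the 5p arm first.
Mir193a: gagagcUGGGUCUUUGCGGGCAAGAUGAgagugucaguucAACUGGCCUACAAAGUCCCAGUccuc
Mir193b: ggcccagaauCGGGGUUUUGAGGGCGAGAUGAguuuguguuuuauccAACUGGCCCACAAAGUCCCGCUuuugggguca
Mir365-1: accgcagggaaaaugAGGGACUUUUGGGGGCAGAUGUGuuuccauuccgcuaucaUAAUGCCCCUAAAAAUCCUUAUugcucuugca
Mir365-2: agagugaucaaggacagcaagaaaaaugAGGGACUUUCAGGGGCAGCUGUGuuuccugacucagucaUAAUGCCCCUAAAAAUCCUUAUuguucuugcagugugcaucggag
Mir193a lies at chr11:79711969-79712034 and Mir365-2 at chr11:79726400-79726511 (GRCm38.p6, the assembly of mm10, both on the plus strand), with 14365 bp between them. In the RefSeq gene table neither overlaps another gene. Mir193b lies at chr16:13449523-13449601 and Mir365-1 at chr16:13453840-13453926, again on the plus strand, with 4238 bp between them. Both lie inside the spans of the long noncoding RNA genes Gm32817 and Gm53058, and the table does not separate exon from intron. The mature miR-365-3p is identical in Mir365-1 and Mir365-2, so its count is the sum of both genes.

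Library totals were 3776893 miRNA counts in replicate 1 and 4122955 in replicate 2. Levels are given as CPM, counts per 1000000 miRNA counts, and where no read was counted the upper limit is set at 3 counts, which is 0.794 CPM in replicate 1 and 0.728 CPM in replicate 2. Epithelial marker miRNAs were abundant: all 7 of the list were found in both libraries, with summed levels of 105854 and 106177 CPM. The summed levels of the markers of other cell types were 34.7 and 20.4 CPM for muscle, 24.9 and 99.7 CPM for mesenchyme, 6.09 and 8.004 CPM for blood, 113.8 and 101.6 CPM for neurons, 0 and 1.21 CPM for melanocytes, and 4.50 and 8.49 CPM for liver, in replicates 1 and 2. The rise for mesenchyme came from miR-214-3p alone (6.88 and 88.3 CPM), while miR-199a-3p, miR-143-3p and miR-145a-5p were lower in replicate 2. The sum for neurons was nearly all miR-9-5p (110.7 and 101.6 CPM), with miR-124-3p at 3.18 and 0 CPM. Most of the sum for muscle was miR-206-3p (32.3 and 18.9 CPM). Among the markers listed in a table, miR-1a-3p of muscle, miR-451a of blood and miR-211-5p of melanocytes were at 0 in replicate 1, and miR-133a-3p of muscle, miR-143-3p of mesenchyme, miR-142-3p of blood and miR-124-3p of neurons were at 0 in replicate 2. Only the spread between the libraries is measured, since the labels do not say whether they came from separate cultures.

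Together the 6 names took a small and steady share of the profile. They had 12188 counts in replicate 1 and 13335 in replicate 2, or 0.323% ± 0.000519 of all miRNA counts (SD, n = 2). The share was 0.323% in both libraries, with Wilson 95% intervals of 0.317% to 0.328% and 0.318% to 0.329%. Intervals cover counting error only, since PCR copies are not independent molecules. Within this sum, miR-193a-3p held 88.1% ± 1.71, miR-365-3p 6.02% ± 2.13, miR-193b-3p 5.50% ± 0.487 and miR-193a-5p 0.367% ± 0.0843. Thus the 3p arm of a single gene, Mir193a, carried most of the counts.

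miR-193a-3p, the guide strand of Mir193a, had 10591 counts (2804 CPM) in replicate 1 and 11911 counts (2889 CPM) in replicate 2. Its mean was 2847 ± 60.0 CPM (SD, n = 2), and it ranked 56 in each library, while 56 names had a higher mean. The Wilson 95% intervals were 2751 to 2858 CPM and 2838 to 2941 CPM, and they overlapped. The names closest to it in level over both libraries were miR-30a-5p (2893 ± 86.1 CPM), miR-421-3p (2973 ± 123.4 CPM) and let-7g-5p (2960 ± 284.2 CPM). The median over all 1477 names was 4.99 CPM.

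miR-193b-3p, which shares the seed, was far lower. It had 628 counts (166.3 CPM, 153.8 to 179.8) in replicate 1 and 779 counts (188.9 CPM, 176.1 to 202.7) in replicate 2, with a mean of 177.6 ± 16.0 CPM. Its rank was 191 and 180. The names closest in level were miR-6380 (175.9 ± 12.9 CPM), miR-2136 (186.6 ± 4.02 CPM) and miR-18a-3p (166.8 ± 4.52 CPM). As the only names of the table with this seed, miR-193a-3p and miR-193b-3p together made up 0.302% ± 0.00760 of all counts.

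miR-365-3p was near miR-193b-3p, with a wider spread. It had 917 counts (242.8 CPM, Wilson 95% interval 227.6 to 259.0) in replicate 1 and 602 counts (146.0 CPM, 134.8 to 158.1) in replicate 2. Its mean was 194.4 ± 68.4 CPM, with ranks of 159 and 204. The library intervals did not overlap: replicate 1 was the higher. The names closest in level were miR-466o-5p (172.2 ± 37.3 CPM), miR-501-5p (188.6 ± 28.7 CPM) and miR-877-3p (226.3 ± 92.2 CPM). All of them were higher in replicate 1, which a choice by the level in each library favours.

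The 5p arms were scarce. miR-193a-5p, the arm linked to p73, had 52 counts (13.8 CPM, Wilson 95% interval 10.5 to 18.1) in replicate 1 and 41 counts (9.94 CPM, 7.33 to 13.5) in replicate 2, with a mean of 11.9 ± 2.70 CPM. This was close to miR-467a-3p (11.7 ± 2.52 CPM), miR-5104 (11.9 ± 3.42 CPM) and miR-7070-5p (12.5 ± 3.28 CPM), and above the median of all names. miR-365-1-5p and miR-365-2-5p each had 0 counts in replicate 1 and 1 count in replicate 2, which is 0.243 CPM (Wilson 95% interval 0.0428 to 1.37). Each of these had the same counts as 41 other names, so none is given as closest. With 1 read each, the shares of Mir365-1 and Mir365-2 in the miR-365-3p counts were not detectable at this depth.

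**Figure D1:**
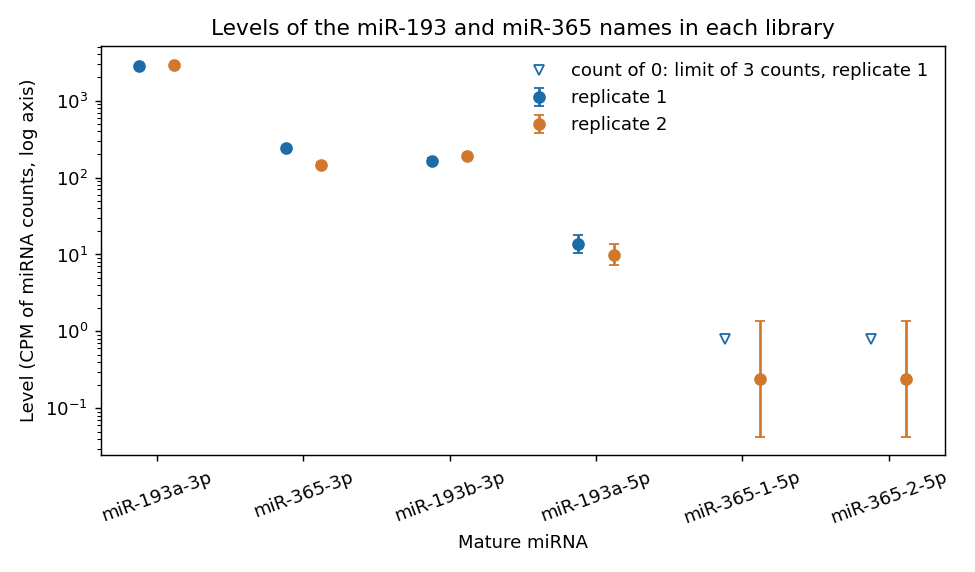
Level of each of the 6 names in CPM of miRNA counts (log axis) in replicate 1 and replicate 2. Points are single libraries, bars are Wilson 95% intervals, and open triangles mark the limit of 3 counts where replicate 1 had 0. miR-193a-3p stands at 2804 and 2889 CPM, miR-365-3p and miR-193b-3p change places between the libraries, and the 5p arms of miR-365 are at 1 count in replicate 2.

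The order of the levels was therefore clear at the top and the bottom and open in the middle. miR-193a-3p had 16.9 times the counts of miR-193b-3p in replicate 1 (exact 95% interval 15.6 to 18.3) and 15.3 times in replicate 2 (14.2 to 16.5), with a mean ratio of 16.1 ± 1.11 (SD, n = 2). It had 11.5 times the counts of miR-365-3p in replicate 1 (10.8 to 12.4) and 19.8 times in replicate 2 (18.2 to 21.5), a mean ratio of 15.7 ± 5.82. Both mean ratios were above 1 by more than their SD, and each library gave the same direction. miR-365-3p and miR-193b-3p could not be ordered: miR-365-3p had 1.46 times the counts of miR-193b-3p in replicate 1 (1.32 to 1.62) and 0.773 times in replicate 2 (0.694 to 0.861), and the mean ratio of 1.12 ± 0.486 did not differ from 1 beyond its spread. With 2 libraries the smallest p-value of an exact sign-flip test is 0.5 (two-sided), so no test is given for these ratios beyond the SD. They are ratios of reads, and ligation and amplification can differ between sequences.

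Neighbouring miRNA genes may be copied as a single transcript, so the miR-193 and miR-365 neighbours were set beside other neighbours. The comparison was chosen after the values were seen. Another 24 pairs of adjacent miRNA genes lay within 20 kb on the same strand and had leading mature names that come from 1 gene each and reach a mean of 100 counts. Their leading names differed by a median of 2.57-fold, from 1.20-fold to 8.11-fold. miR-193a-3p differed from miR-365-3p by 15.1-fold (geometric mean of the libraries), more than any of these 24. The minimum of 100 counts left out neighbours with a scarce partner, so the 24 do not show the full range of differences. miR-365-3p itself, which is encoded by both Mir365-1 and Mir365-2, would not meet the condition of 1 gene. How much of miR-365-3p came from Mir365-2, the gene next to Mir193a, is not known. That part cannot exceed the whole, so for Mir365-2 the difference in reads is 15.1-fold or more. The gene distances were not alike: the 14365 bp between Mir193a and Mir365-2 compares with 53 to 5942 bp in the 24 pairs. miR-193b-3p and miR-365-3p differed by 1.06-fold, but how much of miR-365-3p came from the gene next to Mir193b is not known.

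The excess of miR-193a-3p over miR-193b-3p was also set beside other pairs of related miRNAs. A list of 7 such pairs was used. RefSeq sequences were at hand for 6 of them and for the miR-193 pair, and each of these 7 pairs had a common seed; the pair of miR-23a-3p and miR-23b-3p was not checked. miR-99b-5p had 16.9 ± 8.98 times the counts of miR-99a-5p, a ratio near that of the miR-193 pair but with a larger spread. In the other 6 pairs the more abundant member had between 1.02 ± 0.0159 (miR-23a-3p over miR-23b-3p) and 6.06 ± 0.0867 times (miR-26a-5p over miR-26b-5p) the counts of its partner. In both libraries the ratio of the miR-193 pair lay above those of these 6 pairs. The list does not hold every pair of related miRNAs, and pairs outside it lay further apart. By mean level, miR-29a-3p stood at 12921 CPM and miR-29c-3p at 427.4 CPM, and miR-10a-5p at 1370 CPM and miR-10b-5p at 8.25 CPM. A ratio of this size was therefore not particular to the miR-193 pair.

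**Figure D2:**
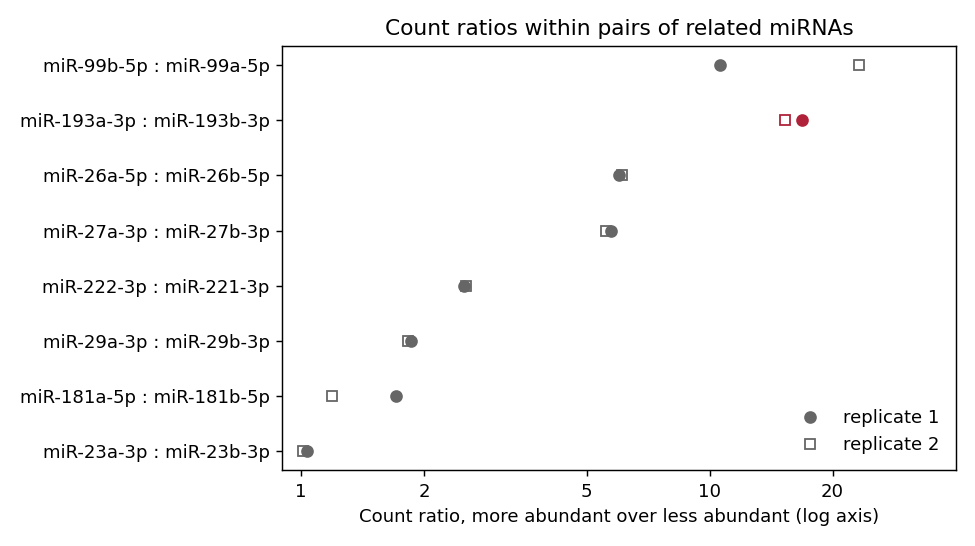
Ratio of the more abundant to the less abundant member within each of 8 pairs of related miRNAs (log axis), with filled circles for replicate 1 and open squares for replicate 2. The miR-193 pair, in red, stands at 16.9 and 15.3. Of these 8 listed pairs, only that of miR-99b-5p and miR-99a-5p has a larger mean ratio, with its libraries far apart.

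The hairpins of miR-193a and miR-365 gave their counts almost wholly from the 3p arm. For miR-193a the 3p share was 99.5% (Wilson 95% interval 99.4% to 99.6%) and 99.7% (99.5% to 99.7%), in the order of the replicates, with a mean of 99.6% ± 0.103 (SD, n = 2). For miR-365, with the 5p arms of both genes added together, 917 of 917 counts were from the 3p arm in replicate 1, which allows a 5p share of up to 0.327%, and 602 of 604 in replicate 2, or 99.7% (98.8% to 99.9%). For miR-193b no 5p count was found beside 628 and 779 counts of the 3p arm. The name of that 5p arm is missing from both tables, and whether it was among the names counted is not stated. If it was, a 5p share of up to 0.478% and 0.385% is allowed, and if it was not, no limit follows. The hairpin therefore stayed out of the test.

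A 3p excess of this kind was not the rule. Hairpins were compared where each arm had a name in the tables and the arms together reached 100 counts per library. Arms named by gene number, as in miR-365-1-5p, were added together for every such hairpin (21 of 185, miR-365 among them). In 61 of the 185 hairpins the 3p arm was the higher in both libraries (33.0% called, exact two-sided binomial test, Benjamini-Hochberg adjusted p under 0.05), and in 110 the 5p arm (59.5% called). miR-193a and miR-365 were among the 61. The adjusted p-values of miR-365 were 3.37e-276 and 9.01e-177 in the exact binomial test, and those of miR-193a were smaller than a computer number can hold. These p-values count reads as independent and so cover counting error only. Over the 185 hairpins the leading arm held a median of 95.3%. It held more than 99% in 52 of them (28.1%), and miR-365 ranked 18 and miR-193a ranked 33 in this order.

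**Figure D3:**
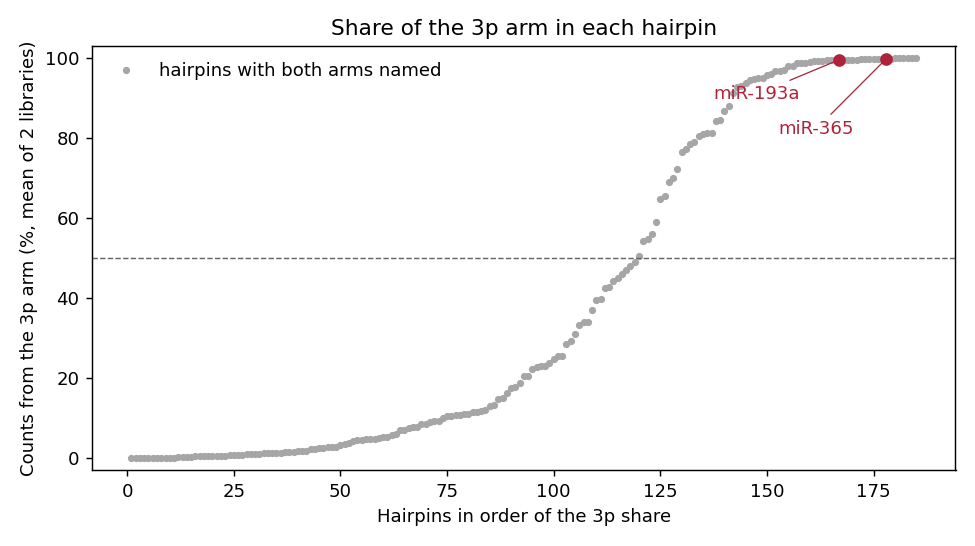
Share of counts from the 3p arm, in percent and as the mean of the 2 libraries, for 185 hairpins in rising order. miR-193a (99.6%) and miR-365 (99.8%), in red, lie at the upper end, and the dashed line marks equal arms.

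The libraries were compared with each other name by name, with an exact two-sided binomial test of the counts against the share expected from the totals. This asks whether replicates of 1 condition differ by more than the counting error of reads. Of 1002 names whose mean reached 10 counts, 707 (70.6%) had a Benjamini-Hochberg adjusted p under 0.05, so a call is common. Among the 6 names here, 4 reached the count minimum and 3 of those were called, 2 higher and 1 lower in replicate 2. This is near the background share.

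miR-193a-3p differed by a log2 ratio of 0.043 for replicate 2 over replicate 1 (exact 95% interval 0.0051 to 0.081), with an adjusted p of 0.0374 in the exact binomial test. This is 1.03-fold. miR-193b-3p was called with 0.18 (0.031 to 0.34, adjusted p = 0.0259), or 1.14-fold. Neither stood out from its surroundings: among names with a mean count within 3-fold, the median absolute log2 ratio was 0.089 around miR-193a-3p (76 names) and 0.31 around miR-193b-3p (155 names).

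miR-365-3p differed more, with a log2 ratio of -0.73 (-0.88 to -0.58, adjusted p = 1.85e-21 in the exact binomial test), 1.66-fold higher in replicate 1. Among 153 names with a mean count within 3-fold of it, the median absolute log2 ratio was 0.30. Of these, 86.3% had a smaller one, so differences of this size or larger also occurred in other names. The median was 0.61 over all tested names with counts in both libraries. Its direction was opposite to the small differences of miR-193a-3p and miR-193b-3p, and whether this goes beyond the scatter of replicates was not tested. miR-193a-5p had a log2 ratio of -0.47 (-1.10 to 0.15) and missed the threshold (adjusted p = 0.154), and names of similar count had a median absolute log2 ratio of 1.16 (514 names).

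**Figure D4:**
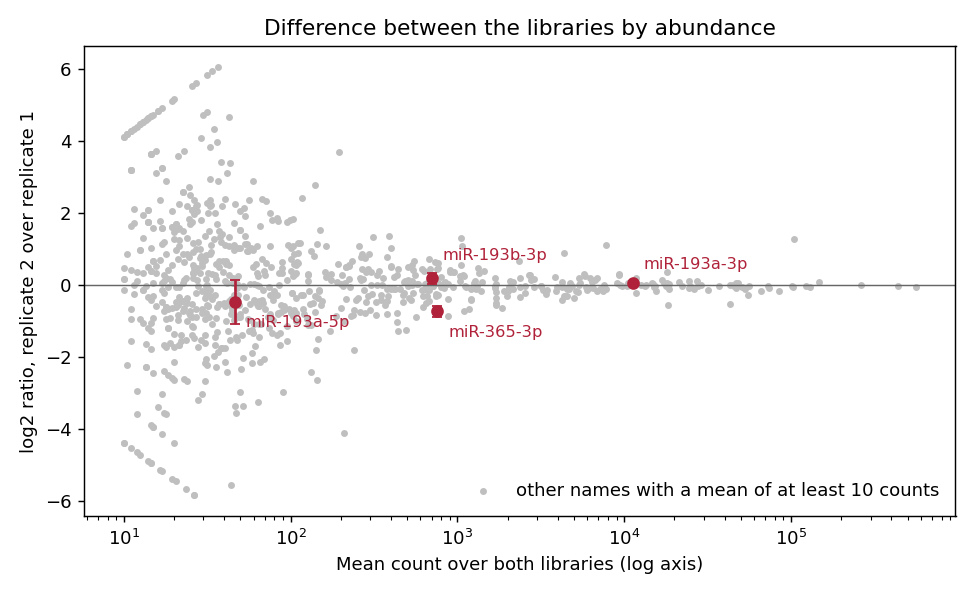
log2 ratio of replicate 2 over replicate 1 against the mean count (log axis). Grey points are the 853 of 1002 tested names that were found in both libraries, less the red ones, and red points are miR-193a-3p, miR-193b-3p, miR-365-3p and miR-193a-5p with exact 95% intervals. The spread narrows as counts rise, and miR-365-3p lies below zero at -0.73.

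miR-193a was last read beside other miRNAs linked to p63 or its relatives in epithelial cells. All 10 names of that list were found in both libraries. Of all 1477 names, 1231 were found in replicate 1 and 1232 in replicate 2. The median level of the list was 257.9 CPM, against 4.99 CPM for all names and 10.8 CPM for the 1002 names whose mean reached 10 counts. The list was not matched to other names in level, so this contrast is not a result about p63. miR-193a-3p was above 8 of them. It was below miR-205-5p (32993 ± 915 CPM), an epidermal miRNA, and miR-203-3p (4413 ± 94.1 CPM), which lowers p63 as keratinocytes differentiate. It was above miR-34a-5p (1156 ± 61.1 CPM), a p53 target. miR-193a-5p (11.9 ± 2.70 CPM) had a mean below that of miR-130b-3p (24.7 ± 17.1 CPM), the lowest of the list. It had the lower count within each library, 52 against 139 in replicate 1 and 41 against 52 in replicate 2. The means did not differ beyond the spread between the libraries. Of the 10 names, 1 was called higher and 8 lower in replicate 2 by the exact binomial test, where 36.2% and 34.3% of all names tested were called in these directions.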

How the data were processed

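The authors deposited a table for each library that pairs mature miRNA names with raw counts, which were not normalised. The submitters' processing notes name cutadapt, Novoalign and the build mm10, without versions or roles. How PCR copies, chimeras and reads matching several names were counted is not given in the sources used here. Names missing from a table were set to 0. Rows that name no miRNA (0.00265% and 0.000218% of counts) were left out. Target sites were not analysed here.

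CPM used the miRNA total of each library. Levels and ratios carry the SD over 2 libraries, and shares carry Wilson and ratios exact 95% intervals. Libraries and arms were compared with exact binomial tests. Closest names had the 3 smallest distances of log2(CPM + 1), other members left out. Every name found by the rule is described. The members, lists and tests were chosen with earlier results of these data known. Alternatives used TMM factors (edgeR 4.0.16), DESeq2 1.42.0 size factors (R 4.3.3), other totals, count minimums, thresholds and pseudocounts, and each library alone. Python 3.11.15, scipy 1.17.1, numpy 2.4.6, pandas 2.3.3 and matplotlib 3.10.9 were used. RefSeq sequences were matched to 1231 of the 1477 names (83.3%).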

Additional observations from a re-analysis of the deposited data

How the results depend on the processing

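Levels, shares, arm shares and ratios moved by less than the spread between the libraries under TMM factors, DESeq2 size factors, a total restricted to names whose mean reached 10 counts, and counts summed over libraries first, where each applied. A total without the most abundant name raised miR-193a-3p to 3318 CPM, miR-193b-3p to 207.0 CPM and the share of the 6 names to 0.377%. With arms summed, the hairpin of miR-193a ranked 56 and that of miR-193b 175. With the unlisted 5p arm of miR-193b taken as 0, adding 1 count to every arm set the 3p share of miR-193b to 99.9%. At an adjusted p of 0.01 the log2 ratios of miR-193a-3p (0.043) and miR-193b-3p (0.18) lost their call, and with a 2-fold ratio also required miR-365-3p (-0.73) lost it too. The number of names differing between the libraries was 254 when 358 names whose mean reached 100 counts were tested. Among the 1002 names whose mean reached 10 counts, 707 differed in the main setting. This number was 638 at an adjusted p of 0.01, and 441 with a 2-fold ratio required at the main threshold. Most names called in the main setting thus kept their call at 0.01, while miR-193a-3p and miR-193b-3p did not.

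Each library alone gave 2804 to 2889 CPM for miR-193a-3p, 166.3 to 188.9 CPM for miR-193b-3p, 146.0 to 242.8 CPM for miR-365-3p and 9.94 to 13.8 CPM for miR-193a-5p, whose rank was 461 to 538. The rank of miR-193a-3p was 56 to 56. The ratio of miR-365-3p to miR-193b-3p ran from 0.773 to 1.46, so its direction rests on the library. The ratio between libraries has no value with a library left out. No paired analysis was possible because both libraries belong to the same group. Depth limits the 5p arms of miR-365, at 1 count each.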
